A study of Mus musculus with 58 samples.

Results

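The ribosomal protein genes encode the proteins of the large (Rpl) and small (Rps) subunits of the cytoplasmic ribosome. They were chosen by symbol alone: Rpl or Rps followed by an optional letter, digits and an optional letter or a final l, together with Rplp0, Rplp1, Rplp2 and Rpsa, and without the Rps6k kinases. This rule found 81 of the 19699 genes in the table, and these 81 members held 9.11% of all transcripts in the 4310 cells kept. Of the members, 80 were seen in at least 1 cell, 79 passed the filter on low counts for the comparisons between lineages, and Rpl3l and Rpl10l did not pass it. Rps3a1, which encodes a small subunit protein but carries a digit after its letter, falls outside the rule and was not counted (an exception noticed after the table was seen).

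The cells came from embryonic mouse pancreas and were counted by SORT-seq, in which single cells are sorted into the wells of plates and transcripts are counted with unique molecular identifiers. Mothers carried MIP-GFP, a reporter that expresses GFP from the promoter of the insulin gene. Each experiment had cells sorted as GFP positive (MIP-GFP plates) and cells sorted only for viability (live plates). No knockout, drug or other treatment was compared. The 7 experiments, called by the number in their titles, filled 15 plates. The E12.5 embryos gave EP11 and EP18. The E13.5 embryos gave EP12 and the E14.5 embryos EP14. Those of E15.5 gave EP10 and EP17, and those of E18.5 gave EP16. The titles of the MIP-GFP libraries of EP11, EP18 and EP16 give another stage than the developmental stage field, which was used here. The labels do not say how many embryos or litters entered an experiment, so the spread below is between experiments and may be partly technical.

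Ribosomal proteins are made in near equal amounts for assembly, and dividing or growing cells need many of them. In mammals their mRNAs begin with a 5′ terminal oligopyrimidine (TOP) tract, a C followed by a run of pyrimidines, through which growth signals acting by mTOR set their translation. Several have paralogs with restricted expression: Rpl39l and Rpl10l are known from testis, Rpl3l from heart and skeletal muscle, Rps27l as a target of p53, and Rpl36a and Rpl36al encode nearly identical proteins of the large subunit.

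The sequence around the listed start of transcription shows the letters where a TOP tract would lie. RefSeq (GRCm38.p6) windows were found for 61 of the 81 members. Below, windows of 30 bases, from 12 bases before the listed start, are shown for the paralog pairs that the results turn on and for Rpl13a and Rps26, as members with runs of 14 and 9 bases. Capitals mark the longest run of C and T that holds any base within 3 bases of the start.
Rpl36a, chrX:134585642-134585671, plus strand: cacccaggcaccgCCTataaacttccgttg
Rpl36al, chr12:69184050-69184079, minus strand: tcccgtcgCTCaggttcagttccgacttcc
Rps27, chr3:90213631-90213660, minus strand: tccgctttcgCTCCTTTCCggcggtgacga
Rps27l, chr9:66946074-66946103, plus strand: ctcctccccgccgCCTCTatcccggaagtt
Rpl39, chrX:37085205-37085234, minus strand: aagctccgCCTCTagcgacttcttctaatc
Rpl39l, chr16:10170216-10170245, plus strand: ccaggCCTTTCCggatttccggtggtcgcc
Rpl13a, chr7:45128728-45128757, minus strand: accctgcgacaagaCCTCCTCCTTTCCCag
Rps26, chr10:128626489-128626518, minus strand: gggcaagccgccggaTCCTCTTTCgagtct

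A run of at least 8 pyrimidines lay at the listed start in 18 of the 61 members (29.5%), against 7.89% of 32851 promoters of the same table. Only the first listed start of each member was taken, while the 32851 promoters were not reduced in this way. This holds for the other percentages here too. The start taken can lie inside the gene: the window of Rps27l begins at 66946074 and the gene at 66944624. The run of Rpl13a had 14 bases and that of Rps27 had 9, and the longest of all members, in Rpl7a, had 21. The median run was 4 bases in members and 3 in all promoters, so most listed starts do not show a long run. The runs of Rpl36a and Rpl36al each had 3. In the windows of 250 bases before to 50 bases from the start, on either strand, CCGGAAGT (a core of ETS factor sites) was found in 19.7% of member promoters against 3.89% of all, and CGCCAT (a core of YY1 sites) in 27.9% against 8.93%. The TATA box letters TATAAA were found in 8.2% of members against 13.6% of all. These matches describe letters in listed windows and not measured binding.

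Lineages came first from gates on the transcripts of each cell and then from clusters made without ribosomal protein, mitochondrial ribosomal protein and cell cycle genes. A hormone gate held cells with at least 1% of their transcripts from a hormone and at least 3 times any other hormone, which gave 1000 insulin-gated and 571 glucagon-gated cells. Among the rest, 143 Neurog3-gated cells held at least 2 transcripts of Neurog3, the factor that starts endocrine fate, and 0 of Fev. The 376 Fev-gated cells, of a later precursor stage, were the converse. Clusters gave 628 mesenchyme-like, 465 duct-like, 328 endocrine-like, 256 immune-like, 250 acinar-like and 139 mesothelium-like cells. In the mesenchyme-like clusters 8 to 12 of 12 listed markers were raised at least 2-fold, in the acinar-like cluster 15 of 18, and in the duct-like clusters 6, 11 and 12 of 15. The duct-like cluster with 6 of 15, of 270 cells, was led by Gc, Sox9 and Nr5a2 and also raised 4 of 18 acinar and tip markers. The acinar-like cluster in turn raised 5 of 15 duct markers. At E12.5 the live plates of EP11 and EP18 held 140 and 107 duct-like and 0 and 2 acinar-like cells. The name duct-like is thus by the larger number of raised markers and is not limited to duct. In addition, 1 mesenchyme-like cluster was led by the cell cycle genes Aspm, Cenpe and Mki67. The naming rule was chosen after the data were seen, and 56 cells stayed unnamed.

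Plates held 127 to 362 cells, and the median transcripts per cell ran from 6782 to 9644 on the plates of EP17 and EP18 and from 11724 to 27218 on the others. The shallow experiments had the higher member shares: 17.5% and 18.2% of the transcripts on their live plates against 11.03% to 13.2% on the live plates of the other experiments. On MIP-GFP plates the values were 9.22% and 9.60% against 5.08% to 6.81%. Whether depth, chemistry or the embryos set this gap was not tested. Results that could move with it are therefore taken within a plate or experiment. One E18.5 plate labelled live (coded P6 in its name) held 291 insulin-gated cells of 301 and had a share of 5.62%, against 12.4% on the other live plate of EP16. In the titles of the other plates the code P6 goes with MIP-GFP libraries, so label and code disagree for this plate. The label was used here, and the plate counts as live unless it is said to be left out. On the MIP-GFP plates of EP11 and EP18, at E12.5, 256 of 349 and 99 of 173 cells were glucagon-gated and 0 insulin-gated, so the GFP gate did not mark insulin cells alone.

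Among lineages with at least 4 experiments the member share was lowest in hormone cells and highest in duct-like and acinar-like cells. Values here are the pooled share of all transcripts of a lineage in an experiment, for experiments with at least 10 of its cells. Insulin-gated cells had a mean of 6.13% ± 1.48 (SD, n = 5 experiments), with 5.38% in EP10, 5.20% in EP12, 5.31% in EP14, 6.09% in EP16 and 8.70% in EP17. EP17 stood above the other insulin-gated values. Glucagon-gated cells had 6.77% ± 1.71 (SD, n = 7), from 4.58% in EP11 through a median of 6.05% to 8.99% in EP17. Fev-gated cells had 7.26% ± 1.88 (SD, n = 6; lowest 5.07%, highest 10.7%) and the ungated endocrine-like cells 7.69% ± 1.78 (SD, n = 5). The ranges of these groups overlapped, although insulin-gated cells were below glucagon-gated and Fev-gated cells in 5 of 5 experiments each.

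Neurog3-gated cells had 11.01% ± 1.01 (SD, n = 4), with 10.7% in EP10, 10.1% in EP11, 10.8% in EP12 and 12.47% in EP14. In each of these 4 experiments they stood above the Fev-gated cells. Immune-like cells were at 11.03% ± 2.09 (SD, n = 6), mesothelium-like cells at 11.9% ± 2.24 (SD, n = 6) and mesenchyme-like cells at 11.96% ± 2.21 (SD, n = 6; lowest 9.19%, median 11.95%, highest 15.47%). In these pooled values the order among these 4 groups was not stable. Mesenchyme-like cells were above Neurog3-gated cells in 2 of 4 experiments and above immune-like cells in 4 of 6. The pooled Neurog3-gated cells came from both sorts, and the mesenchyme-like cells almost only from live plates. On the same live plate Neurog3-gated cells were above mesenchyme-like cells each time. The ratio of their shares was 1.102 in EP10, 1.167 in EP11, 1.028 in EP12 and 1.06 in EP14. For immune-like against mesenchyme-like cells the ratio was 1.107 in EP10, 0.944 in EP12 and 1.054 in EP16. Duct-like cells came next, at 14.9% ± 2.85 (SD, n = 7; lowest 12.1%, median 13.501%, highest 19.4%), and were above mesenchyme-like cells in 6 of 6 experiments. Acinar-like cells, the future digestive enzyme makers, were the highest at 16.97% ± 1.95 (SD, n = 4), with 15.52% in EP10, 15.6% in EP12, 17.03% in EP14 and 19.7% in EP17. They were above duct-like cells in 4 of 4 experiments.

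**Figure D1:**
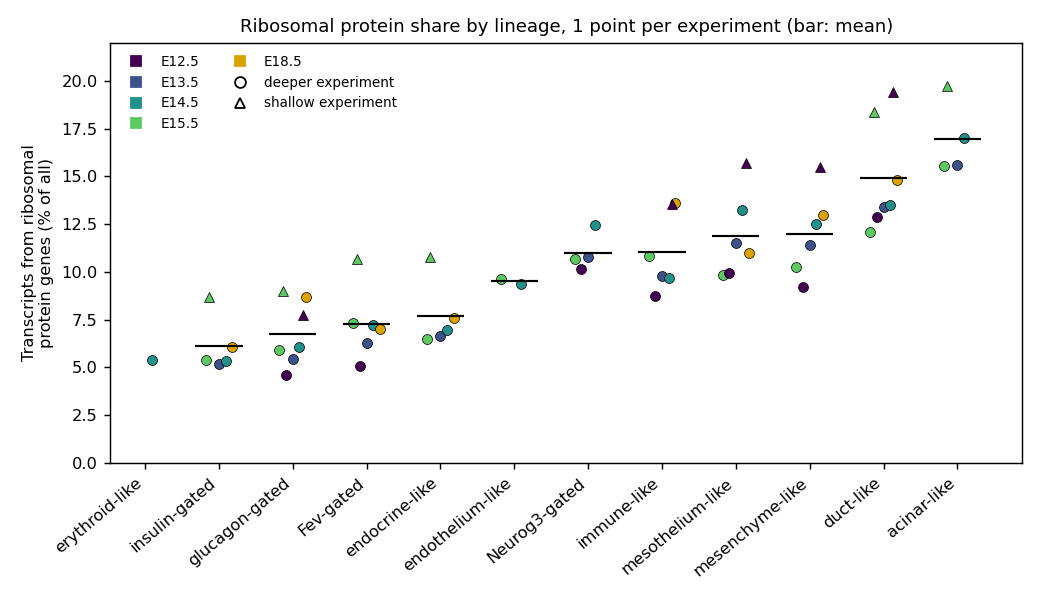
Member share of all transcripts (y axis, percent) for each lineage (x axis), 1 point per experiment and bars at the mean; colours give the stage and triangles the shallow experiments EP17 and EP18. Insulin-gated cells average 6.13% and acinar-like cells 16.97%, and within most lineages the triangles are the highest points.

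A share depends on what else a cell makes. Hormone, digestive enzyme and globin transcripts can fill a large part of a cell's total, so shares were also taken of the transcripts that remain without 37 such genes. The mean in insulin-gated cells was then 6.80%, in glucagon-gated cells 7.31%, in mesenchyme-like cells 11.98% and in acinar-like cells 17.7%. The order of these 4 means was the same. The 13 erythroid-like cells of EP14 did move, from 5.39% of all transcripts to 11.4% of the transcripts without these genes.

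Lineages were next compared on the same plate, so that they shared the sort and the library preparation but not the depth per cell, and differences were averaged within an experiment and tested by a two-sided exact sign-flip permutation test over experiments. Mesenchyme-like cells had more than hormone-gated cells (insulin- and glucagon-gated cells together): 10.2% against 5.86% on the live plate of EP10, 12.9% against 7.61% in EP16 and 15.47% against 10.2% in EP18. The difference was 4.97 ± 0.511 percentage points (SD, n = 3 experiments; exact permutation p = 0.25, the smallest that 3 experiments allow). Mesenchyme-like cells were the higher on each plate, while the hormone-gated cells of EP18 held as much as the mesenchyme-like cells of EP10.

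Along the endocrine path the share was lower at each step on every plate with enough cells of both groups. Duct-like cells were at 12.1% against 11.3% for Neurog3-gated cells in EP10, 12.9% against 10.7% in EP11, 13.4% against 11.7% in EP12 and 13.6% against 13.3% in EP14. The mean difference was 1.24 ± 0.838 percentage points (SD, n = 4; exact permutation p = 0.125, the smallest for 4, and 0.175 adjusted over the 7 comparisons of shares). Neurog3-gated cells exceeded Fev-gated cells by 3.05 points in EP10, by 3.39 in EP14 and, in EP12, by 2.89 on the MIP-GFP plate and 3.91 on the live plate. The mean was 3.28 ± 0.198 points (SD, n = 3; exact permutation p = 0.25). Fev-gated cells exceeded hormone-gated cells by 0.417 points in EP10, 0.468 in EP11, 0.700 in EP12, 0.908 in EP14 and 2.22 in EP17. The mean was 0.943 ± 0.742 points (SD, n = 5; exact permutation p = 0.0625, the smallest for 5, and 0.175 adjusted), and without the shallow EP17 it was 0.623. Of the transcripts without hormone, enzyme and globin genes the differences were 0.159 points in EP10, 0.301 in EP11, 0.706 in EP14 and 1.57 in EP17, and EP12 lay between EP11 and EP14. Whether the 3 steps differ in size was not tested.

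The sort moved with the share within a lineage as well. In the 10 cases where a lineage had at least 10 cells on both a live and a MIP-GFP plate of an experiment, leaving out the P6-coded plate, the live cells were higher in 10, by 0.458 to 3.37 percentage points. Neurog3-gated cells of EP12 were at 8.92% on the MIP-GFP plate and 11.7% on the live plate, Fev-gated cells of EP14 at 6.50% and 9.87%, immune-like cells of EP12 at 9.42% and 10.7%, and insulin-gated cells of EP10 at 5.33% and 5.79%. The insulin-gated cells of the P6-coded plate, at 5.56%, lay below those of the MIP-GFP plate of EP16, at 6.71%. Whole live plates exceeded MIP-GFP plates in 7 of 7 experiments, by 6.12 ± 2.41 percentage points (SD, n = 7; exact permutation p = 0.0156, and 0.109 adjusted over the 7 comparisons). The smallest difference, 1.30 points, was in EP16, whose live cells include the P6-coded plate, and without that plate the mean was 6.73.

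Within the hormone-gated cells, glucagon-gated cells were above insulin-gated cells by 0.542 points in EP10, 0.236 in EP12, 0.677 in EP14 and 0.205 in EP17. The mean was 0.415 ± 0.232 points (SD, n = 4; exact permutation p = 0.125, the smallest for 4). Without hormone, enzyme and globin genes it was positive in 3 of 4. Acinar-like cells exceeded duct-like cells by 3.503 points in EP10, 2.23 in EP12, 3.45 in EP14 and 1.18 in EP17, with a mean of 2.59 ± 1.11 (SD, n = 4; exact permutation p = 0.125, the smallest for 4). Acinar-like cells also had more transcripts per cell on each of these plates, with medians of 38499 against 34966 in EP10, 28644 against 18554 in EP12, 42657 against 29029 in EP14 and 8793 against 6070 in EP17. The part of this depth in the share was not tested.

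**Figure D2:**
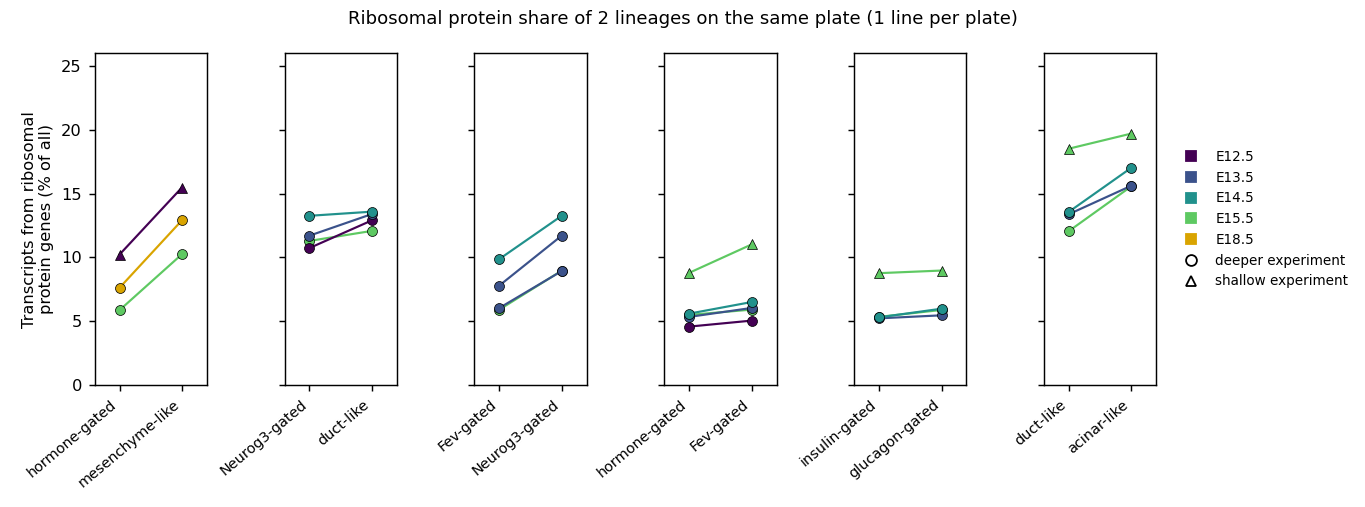
Member share (y axis, percent of all transcripts) of a pair of lineages on the same plate, 1 line per plate and 1 panel per comparison; colours give the stage and triangles the shallow experiments. Each line rises to the lineage on the right, by 3.28 percentage points on average from Fev-gated to Neurog3-gated cells and by 0.415 from insulin-gated to glucagon-gated cells.

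In mesenchyme-like, duct-like and pooled hormone-gated cells the share did not follow stage in a way these experiments could show. Against embryonic day over experiments, Pearson's r was 0.055 in mesenchyme-like cells (n = 6, exact permutation p = 0.914), -0.089 in duct-like cells (n = 7, exact permutation p = 0.857) and 0.144 in hormone-gated cells (n = 7, exact permutation p = 0.755). Spearman's rho was 0.116 (exact permutation p = 0.844), 0 (1) and 0.382 (0.395), and the adjusted p was 0.914 in each of the 3 lineages. EP16 lies farthest from the median day, and the next place is tied (the ties were looked at after the values were seen). Without EP16 and EP18 r was 0.394, 0.409 and 0.683 in the same order of lineages, and without EP16 and EP11, the other E12.5 experiment, it was -0.835, -0.372 and 0.010. For mesenchyme-like cells EP10 ties as well, and without EP16 and EP10 r was -0.002. In mesenchyme-like and duct-like cells the sign therefore rests on which E12.5 experiment is kept. In hormone-gated cells the size of r does, and r was positive both times. At E12.5 duct-like cells held 12.9% in EP11 and 19.4% in EP18. Hormone-gated cells also changed in kind: all were glucagon-gated at E12.5 (262 in EP11, 110 in EP18), and 605 of 620 were insulin-gated in EP16. Glucagon-gated cells alone held 4.58% in EP11, 5.43% in EP12, 6.05% in EP14, 5.89% in EP10 and 8.70% in EP16. In the shallow experiments they held 7.725% (EP18) and 8.99% (EP17). Their course over stage was not tested. With 1 experiment at 3 of the 5 stages, stage and experiment cannot be told apart there.

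Counts of single members were tested next with edgeR's quasi-likelihood test on sums per lineage and experiment, with the experiment as block and Benjamini-Hochberg adjustment over all 14147 genes tested. Differences are log2 of CPM, the count relative to the library total, after TMM scaling. In mesenchyme-like against hormone-gated cells 74 of 79 members were higher and 1 lower, where 65.5% of all genes tested were called, 31.2% higher and 34.3% lower. The median member was 0.92 higher and the median gene -0.05. Rpl36a was 1.86 ± 0.124 higher (SE; edgeR adjusted p = 8.7e-19), Rps26 1.78, Rpl37 1.77 and Rps15a 1.75. The single member that fell was Rpl36al, by 0.97 on the log2 scale (SE 0.128; edgeR adjusted p = 3.4e-09). Rpl26, Rpl30, Rpl39l and Rps27l did not pass, and Rps27l was at -0.29 (edgeR adjusted p = 0.064). Rpl39l was close to absent in both groups, so it could hardly pass. Scaling by DESeq2's size factors moved the median of all genes by 0.14 and left the same 74 and 1 counts, with the median member 0.97 above the median gene under both scalings. The 2 groups mostly came from different plates of an experiment (in EP11 the 143 mesenchyme-like cells were live-sorted and 256 glucagon-gated cells MIP-GFP-sorted), so sort and plate go with lineage in these sums. With sums per plate and the plate as block, 72 members were higher and 1 lower, and Rpl36al was at -0.84.

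Cells at the Neurog3 stage were higher than Fev-gated cells in 69 of 79 members and lower in 0, against 29.2% of all genes tested, 13.8% higher and 15.4% lower. The median member was 0.79 higher and the median gene -0.09. Rpl37 was 1.36 higher, Rps15a 1.27, Rpl36a 1.25 and Rpl39 1.22. Rpl36al was at -0.41 without passing (edgeR adjusted p = 0.052), and Rps27l was at -0.05. Without the experiment block 34 members passed. With sums per plate and the plate as block 70 were higher and 1 lower, and Rpl36al then passed (-0.41; edgeR adjusted p = 0.022).

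Duct-like cells were higher than Neurog3-gated cells in 16 of 79 members and lower in 0, where 12.9% of all genes tested were called, 3.95% higher and 8.90% lower. The median member was 0.30 higher and the median gene 0.01. Rps27l was 0.65 ± 0.178 higher (SE; edgeR adjusted p = 0.0085) and Rpl36al 0.51 ± 0.158 (SE; edgeR adjusted p = 0.022). This count moved widely, from 2 without EP12 to 34 without EP16, with 3 without EP10 or EP11, 7 without EP14, 6 without EP18, and 5 without the block. Between Fev-gated and hormone-gated cells 1 member rose, Rps26 (0.36 higher; edgeR adjusted p = 0.024), and 1 fell, Rpl36al (-0.37; edgeR adjusted p = 0.049), against 9.92% of all genes tested, 7.48% higher and 2.45% lower. The median member was at 0.02. With DESeq2's size factors it was 8 higher and 0 lower, and Rpl36al no longer passed (edgeR adjusted p = 0.14). Without EP10, EP12 or EP14 the count was 0, without EP11 it was 1 and without EP16 it was 12.

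Glucagon-gated cells differed from insulin-gated cells in 4 of 79 members, 2 in each direction, where 19.0% of all genes tested were called, 9.20% higher and 9.78% lower. Rpl36a (0.47) and Rpl9 (0.44) were higher, and Rpl36al (-0.80; edgeR adjusted p = 2.1e-05) and Rpl10 (-0.58) were lower. The median member was at 0.00 and the median gene at 0.03. With DESeq2's size factors 5 were higher and 2 lower. Acinar-like cells were higher than duct-like cells in 64 of 79 members and lower in 0, against 21.1% of all genes tested, 10.8% higher and 10.3% lower. The median member was 0.46 higher and the median gene -0.05, and Rps27l was 1.23 ± 0.164 higher (SE; edgeR adjusted p = 9.2e-08) and Rpl36al 0.85. Rpl26, with a mean of only 3.21 CPM over all sums, was 1.54 higher. Without EP10 or without EP14 the count was 37, and without the block 10.

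**Figure D3:**
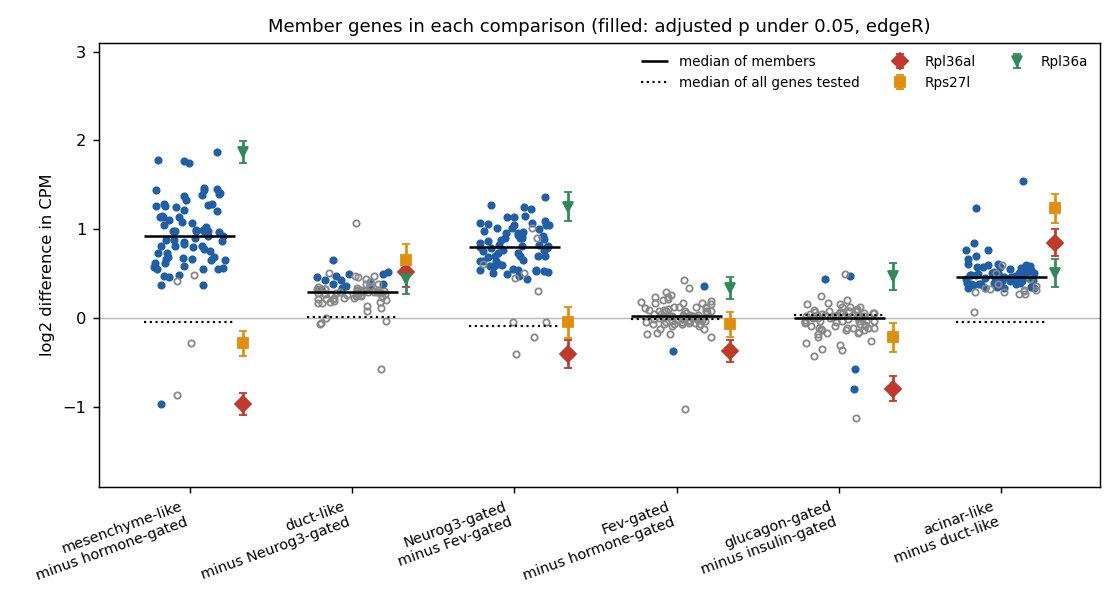
log2 difference in CPM (y axis) of each tested member in 6 comparisons of lineages (x axis), filled where edgeR's adjusted p is under 0.05; solid bars are member medians, dotted bars medians of all genes tested, and larger symbols with standard errors repeat Rpl36al, Rps27l and Rpl36a. The members form 1 cloud near 0.92 in mesenchyme-like against hormone-gated cells, with Rpl36al at -0.97 below it.

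The transcripts of the members were then set against their own total. In this fit a difference of 0 means that a member kept its place in the pool, and levels are given as transcripts per 10000 member transcripts. In mesenchyme-like against hormone-gated cells 24 members lay above their total and 22 below, where 79.1% of all genes tested departed from it, 15.6% above and 63.5% below. Between Neurog3- and Fev-gated cells it was 14 and 11, against 57.9% of all genes, 5.81% above and 52.1% below. Between acinar- and duct-like cells it was 2 and 0, against 33.2%, 3.65% above and 29.6% below. Fev-gated against hormone-gated cells gave 5 and 1, against 9.22%, 6.06% above and 3.15% below. Glucagon- against insulin-gated cells gave 3 and 5, against 17.5%, 9.34% above and 8.12% below. Duct-like against Neurog3-gated cells gave 0 and 1 (Rpl37a, -0.30), against 17.5%, 0.756% above and 16.8% below. As shares of the 79 members these are 58.2%, 31.6%, 2.53%, 7.59%, 10.1% and 1.27%, below those of all genes each time, but the scale is the members' own total, which holds them near 0 by construction. Without the block the count was 25 in place of 46 in the first comparison and 4 in place of 25 in the second.

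Rpl36al departed from the total in 5 of the 6 comparisons, more than any other member, and its place in the pool spread most over lineages among the 73 members with a mean of at least 100 CPM. It took 125, 148, 151, 122 and 148 of every 10000 member transcripts in insulin-gated cells of EP10, EP12, EP14, EP16 and EP17 (139 ± 13.8, SD, n = 5). In glucagon-gated cells it took 70.7 to 92.8 (81.0 ± 7.65, SD, n = 7), and in Fev-gated cells 71.2 to 92.6 (79.8 ± 9.41, SD, n = 6). Neurog3-gated cells held 33.5, 30.2, 35.9 and 38.5 in EP10, EP11, EP12 and EP14. Duct-like cells had 39.97 and acinar-like cells 53.4 on average, and mesenchyme-like cells 22.8 to 31.7 (27.8 ± 3.60, SD, n = 6). No insulin-gated value reached down to a glucagon-gated value, and no Fev-gated value reached down to a Neurog3-gated one. Relative to the total Rpl36al was -1.93 ± 0.108 (SE) in mesenchyme-like against hormone-gated cells, -1.22 in Neurog3- against Fev-gated cells, -0.77 in glucagon- against insulin-gated cells and -0.40 in Fev-gated against hormone-gated cells, and 0.39 in acinar- against duct-like cells.

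Its paralog Rpl36a ran the other way. It took 39.3 to 46.4 of 10000 member transcripts in insulin-gated cells (41.1 ± 3.06, SD, n = 5), 58.8 in glucagon-gated and 57.2 in Fev-gated cells on average. Neurog3-gated cells held 79.0, duct-like cells 92.2, mesenchyme-like cells 92.4 and acinar-like cells 93.7. The ratio of Rpl36al to Rpl36a was 3.39 ± 0.379 (SD, n = 5; lowest 2.99) in insulin-gated cells, 1.38 ± 0.132 (SD, n = 7) in glucagon-gated cells and 1.45 ± 0.422 (SD, n = 6) in Fev-gated cells. It was 0.440 ± 0.044 (SD, n = 4) in Neurog3-gated cells and 0.307 ± 0.049 (SD, n = 6) in mesenchyme-like cells. The insulin-gated cells did not overlap any other lineage in this ratio, nor did the Fev-gated cells (lowest 1.13) overlap the Neurog3-gated cells (highest 0.490). The sum of both was 180 in insulin-gated, 140 in glucagon-gated, 113 in Neurog3-gated and 120 in mesenchyme-like cells. In the last 300 bases of the annotated transcripts the paralogs shared 0% of their 50-base words, but 67.4% of those of Rpl36al and 100% of those of Rpl36a occur in other genes, so the reads of either can be split with such copies.

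Rps27l had the second widest spread in the pool. Per 10000 member transcripts it took 43.6 in insulin-gated, 41.7 in glucagon-gated and 36.3 in Fev-gated cells on average, against 19.6 in Neurog3-gated and 18.49 in mesenchyme-like cells. In mesenchyme-like cells 5 of the 6 experiments lay between 12.6 and 16.6 and EP18 at 36.6. Acinar-like cells held 41.8 in EP10, 36.2 in EP12, 38.6 in EP14 and 83.6 in EP17. Both high values came from shallow experiments, as did the 2 highest glucagon-gated values, 56.1 in EP17 and 56.8 in EP18. Relative to the total it was -1.25 ± 0.147 (SE) in mesenchyme-like against hormone-gated cells, -0.84 in Neurog3- against Fev-gated cells and 0.76 in acinar- against duct-like cells. Rps27, its usual partner in the small subunit, was among the lowest rows of the table at 15.2 CPM, with 58.5% of its 3′ words shared with other genes, so the pair was not compared.

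**Figure D4:**
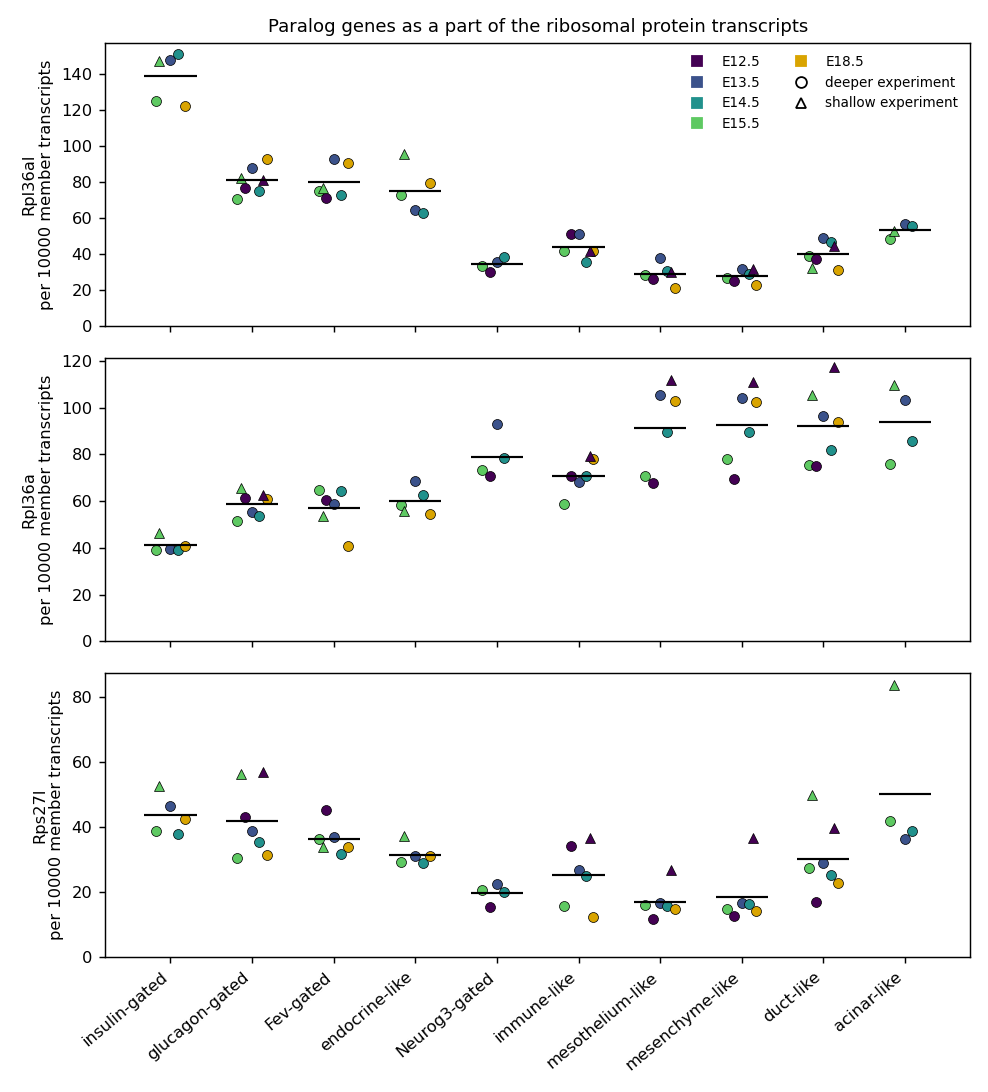
Rpl36al, Rpl36a and Rps27l (panels) as transcripts per 10000 member transcripts (y axis) by lineage (x axis), 1 point per experiment and bars at the mean; colours give the stage and triangles the shallow experiments. Rpl36al averages 139 in insulin-gated and 27.8 in mesenchyme-like cells, Rpl36a 41.1 and 92.4, and Rps27l is highest in acinar-like cells of EP17 at 83.6.

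Of the usual partners of the restricted paralogs, Rpl3 was 0.99 higher in mesenchyme-like than hormone-gated cells and 0.89 higher in Neurog3- than Fev-gated cells, and Rps4x, the X-linked form of a small subunit protein, was 1.29 and 1.01 higher. Rpl3 lay at 0.03 and 0.09 relative to the total there without passing, and Rps4x at 0.33, which passed, and 0.21, which did not. Rpl39 lay above the total by 0.47 and 0.42.

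Among the other departures, Rps26, a small subunit protein at the mRNA exit, lay above the total by 0.82 in mesenchyme-like against hormone-gated cells and by 0.32 in Fev-gated against hormone-gated cells. Rpl19 (-0.59) and Rpl13a (-0.59) lay below in mesenchyme-like against hormone-gated cells, and Rpl13a also in Neurog3- against Fev-gated cells (-0.51). Rpl10, which joins the large subunit late in its assembly, lay at -0.56 in glucagon- against insulin-gated cells, with 333 to 416 of 10000 member transcripts in insulin-gated cells and 194 to 320 in glucagon-gated cells. Rpl9 lay above by 0.46 there, with 106 to 134 in insulin-gated and 135 to 194 in glucagon-gated cells. Neither pair of ranges overlapped, but both genes are among those called furthest from the total in this same comparison. The ranges therefore add no support of their own. Rplp0 (-0.39), Rpl41 (-0.32) and Rps28 (0.27) also departed in that comparison, and Rpl7 (0.26) in Fev-gated against hormone-gated cells.

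When sums were made per plate, Rpl37 lost its departures, and Rps15a lost the one between Neurog3- and Fev-gated cells. Rpl37 took 7.3 of 10000 member transcripts in mesenchyme-like cells of EP12 and 47.6 in those of EP18. It lay above the total by 0.83 in mesenchyme-like against hormone-gated cells and by 0.61 in Neurog3- against Fev-gated cells. With sums per plate and the plate as block these became 0.05 and -0.06, and neither passed. Rps15a, above by 0.49 in Neurog3- against Fev-gated cells, became -0.01. Rps15a departed in 2 comparisons, and the per-plate value of the other is not reported here. The table also counts 32272 transcripts on the row Rps15a-ps6 against 36110 on Rps15a, and 89842 on Rpl31-ps12 against 37344 on Rpl31. How reads were divided between a gene and its copies was not tested.

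The stalk of the large subunit, which recruits elongation factors, is built from Rplp0, Rplp1 and Rplp2, and Rpsa is a small subunit protein also known as the laminin receptor. Rplp2 and Rpsa set experiment EP16 (E18.5) apart in every lineage with enough cells there. Rplp2 took 21.2 to 26.9 of 10000 member transcripts in the 8 lineages of EP16 and 0.00 to 3.03 in the 50 sums of the other experiments (erythroid-like cells left out). Rpsa took 155 to 198 in EP16 and 21.8 to 76.4 in the others. The 13 erythroid-like cells of EP14, the only sum of that lineage, had Rplp2 at 0 and Rpsa at 226.7, above every EP16 value. Within a lineage EP16 exceeded the other experiments by 4.22 for Rplp2 and 2.27 for Rpsa on the log2 scale (pseudocount 0.5), in 8 of 8 lineages. Each of the 3 EP16 plates showed it: Rplp2 was at 31.8, 22.8 and 19.4 and Rpsa at 173, 172 and 220, on the MIP-GFP, live and P6-coded plates. Rplp1 (1.01) and Rpl37 (1.00) were the next highest in EP16. The 3′ words of Rplp2 are shared with other genes for 41.4%, and its listed copy Rplp2-ps1 took 0.995 to 3.62 on the EP16 plates and 0.329 to 2.62 on the others. EP16 is the only experiment at E18.5, so stage and experiment cannot be told apart.

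This carries into the slopes over stage. In mesenchyme-like cells 2 of 77 members rose with embryonic day, Rplp2 (0.88 ± 0.191 per day, SE; edgeR adjusted p = 0.028) and Rpsa (0.50 ± 0.083, SE; edgeR adjusted p = 0.0088), where 5.81% of 10956 genes tested were called. Without EP16 no member passed, without EP11 1 did, and without EP18 11 did. In duct-like cells 0 of 77 members passed edgeR's test, against 3.81% of 10293 genes, with 5 members at an unadjusted p under 0.05 and 2 called by DESeq2. Without EP17 the duct-like count was 1 and without EP18 it was 3.

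**Figure D5:**
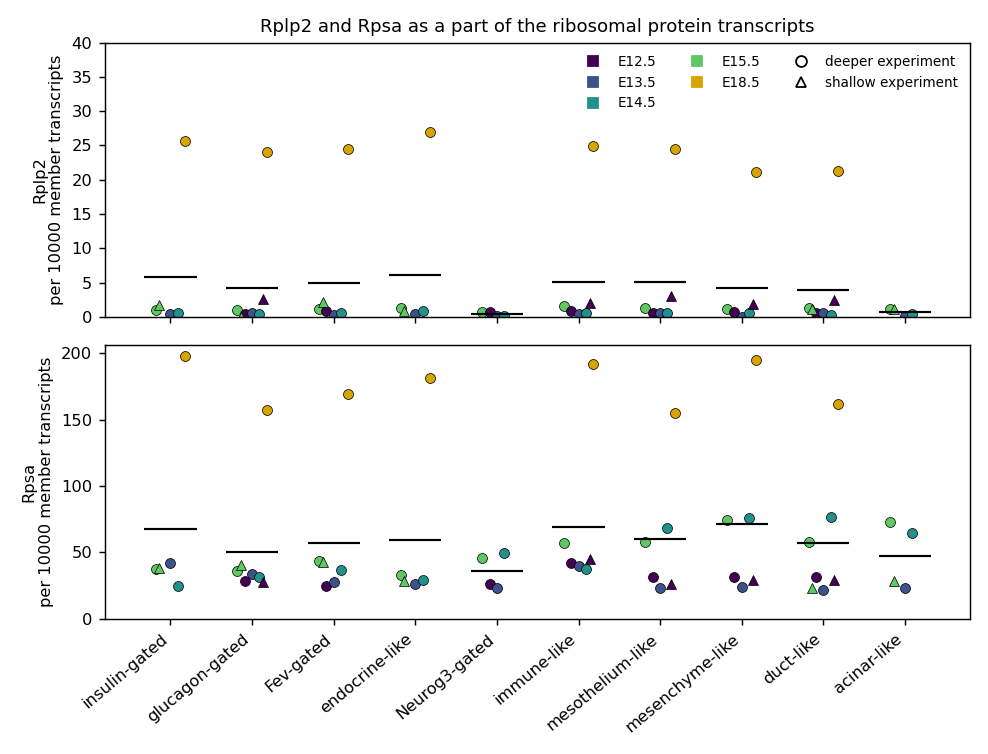
Rplp2 and Rpsa as transcripts per 10000 member transcripts (y axis, 1 panel each) by lineage (x axis), 1 point per experiment and bars at the mean; colours give the stage and triangles the shallow experiments. The E18.5 point lies at 21.2 or more for Rplp2 and at 155 or more for Rpsa in lineages with enough cells there, above all other points plotted (erythroid- and endothelium-like cells are not plotted).

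Levels differed widely between members. Rpl41, which encodes the smallest ribosomal protein, had the highest mean over the 59 sums at 3217 CPM, followed by Rpl10 (2758), Rpl13 (2576), Rps23 (2518) and Rpl4 (2418). The tags are counted per transcript end, so these values need no length correction. At the other end Rpl26 had 3.21 CPM, Rpl30 8.16, Rps27 15.2, Rpl34 31.1 and Rplp2 41.8, although each encodes a protein of every ribosome. For these, 76.3%, 79.3%, 58.5%, 30.2% and 41.4% of the 3′ words occur in another gene. Rpl36 shares 89.2% of its words and had 571 CPM, and Rpl37 shares 0% and had 207 CPM. Whether shared words go with the levels over all members was not tested. Over the 81 members the median shared part was 50%, and 11 members shared none.

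The remaining paralogs of restricted expression were close to absent. Rpl10l had 0 transcripts in 4310 cells, which allows up to 0.0359 CPM (without TMM scaling, here and below; 3 counts of the total). Rpl3l had 2 cells with 1 transcript each. Rpl39l, at chromosome 16, 10170197 to 10174911, was found in 12 cells with 38.4 transcripts in all, against Rpl39 at 619 to 2653 CPM on average in the lineages with at least 4 experiments.

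Of the 12 cells 9 were immune-like (9 of 256, or 3.52%), and these held 35.4 of the 38.4 transcripts. Among them 6 cells held 4 to 6 transcripts each and 3 cells held 1, and the other 3 cells (1 endothelium-like, 1 glucagon-gated, 1 insulin-gated) held 1 each. By experiment the immune-like cells with Rpl39l were 3 of 40 in EP11 and 6 of 58 in EP12. They were 0 of 66 in EP18, 0 of 42 in EP14, 0 of 30 in EP16 and 0 of 17 in EP10. On the MIP-GFP plates it was 3 of 36 cells in EP11 and 5 of 42 in EP12. In pooled immune-like cells Rpl39l was at 17.4 CPM in EP11 and 23.4 in EP12, and the limits that 3 counts allow were 3.67 in EP14, 4.29 in EP18, 10.46 in EP10 and 11.4 in EP16. No transcript was found in 628 mesenchyme-like cells (up to 0.290 CPM) or 465 duct-like cells (up to 0.317). These limits cover counting error only. The number of cells is too small for a test over experiments. None of the 6 comparisons includes immune-like cells, and Rpl39l was close to absent in the lineages they hold. That it was not called in them therefore says nothing about immune-like cells.

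The markers named next were chosen after the data were seen. The macrophage receptor Csf1r was found in 9 of 9 immune-like cells with Rpl39l and in 223 of 247 of the rest. The immune genes Ptprc and Lyz2 were found in 8 of 9 each, and in 212 and 182 of 247. The cycling marker Mki67 was found in 5 of 9 and in 106 of 247. In CPM, Csf1r was at 2270 against 2214 and Mki67 at 814 against 327. Ptprc was at 231 against 314 and Lyz2 at 271 against 459. The 6 cells with 4 to 6 Rpl39l transcripts held 15652 to 38475 transcripts, against an immune-like median of 13384. Over the 59 sums the genes most like Rpl39l in log2 CPM (pseudocount 1) were Fcnb (Pearson's r 0.836), Atp6v0d2 (0.764), Ms4a3 (0.750), Ptafr (0.719) and Il1a (0.711), given as a description over sums that share experiments. In the 9 cells themselves Fcnb and Ms4a3 were at 0, Atp6v0d2 was found in 3, Ptafr in 2 and Il1a in 1.

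Lists of genes with related roles were read beside the members in the same fits. In mesenchyme-like against hormone-gated cells 20 of 22 translation factors and other TOP genes were higher and 0 lower (median 0.69), as were 30 of 41 ribosome biogenesis genes against 2 lower (median 0.64). Genes of membrane and secretory translocation, which bring proteins into the endoplasmic reticulum, were lower in 23 of 26 (median -0.78). Mitochondrial ribosomal proteins gave 16 higher and 28 lower of 76 (median -0.06), where 31.2% of all genes tested were higher and 34.3% lower. Cell cycle genes were higher in 32 of 32 (median 3.73). Their part in the member difference was not tested.

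Between Neurog3- and Fev-gated cells, where 13.8% of all genes tested were higher and 15.4% lower, mitochondrial ribosomal proteins gave 7 higher and 7 lower of 76 (median 0.03). TOP genes were higher in Neurog3-gated cells in 14 of 22 (median 0.59), biogenesis genes in 9 of 41 (median 0.27) and cell cycle genes in 31 of 32 (median 2.16), and translocation genes were lower in 20 of 26 (median -0.59). Between Fev-gated and hormone-gated cells, where the median member was at 0.02, 0 of 22 TOP genes and 0 of 41 biogenesis genes passed edgeR's test, while 11 of 32 cell cycle genes were higher (median 1.04) and 13 of 26 translocation genes lower (median -0.39). In glucagon- against insulin-gated cells translocation genes were lower in 23 of 26 (median -1.11) with the median member at 0.00. In acinar- against duct-like cells members and translocation genes were higher together, the latter in 23 of 26 (median 1.03), and 27 of 41 biogenesis genes (median 0.57) and 29 of 76 mitochondrial ribosomal proteins were higher, while 0 of 32 cell cycle genes passed. In duct-like against Neurog3-gated cells 18 of 41 biogenesis genes (median 0.60), 3 of 22 TOP genes and 3 of 32 cell cycle genes were higher. Of all genes tested there, 3.95% were higher and 8.90% lower. The same shares were 7.48% and 2.45% in Fev-gated against hormone-gated cells and 9.20% and 9.78% in glucagon- against insulin-gated cells. In acinar- against duct-like cells they were 10.8% and 10.3%.

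Among genes with related products outside the rule, Rps4y2 fell by 0.93 in mesenchyme-like against hormone-gated cells, and the others named here were higher where the members were. Rps3a1 was 0.95 higher in mesenchyme-like than hormone-gated cells, 0.78 higher in Neurog3- than Fev-gated cells and 0.47 higher in acinar- than duct-like cells. Gnb2l1, which encodes the scaffold protein RACK1 of the small subunit, was 1.18, 1.01 and 0.52 higher. Fau, which encodes a ribosomal protein fused to a ubiquitin-like protein, was 0.43 higher in the first comparison and 0.50 in the second, and did not pass in the third. The paralog Rpl22l1 was 0.93, 0.63 and 0.33 higher and passed in each, and it was also 0.68 higher in duct-like than Neurog3-gated cells. Rpl7l1, which acts in ribosome biogenesis, was 0.76 and 0.55 higher in the first 2 and 0.54 higher in duct-like than Neurog3-gated cells.

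In the companion lists Mycn, a growth-promoting transcription factor, was the biogenesis gene with the largest difference in mesenchyme-like against hormone-gated cells (3.24) and in Neurog3- against Fev-gated cells (3.97), and it was lower in acinar- than duct-like cells (-2.53). Its relative Myc was higher in acinar- than duct-like cells (1.91) and in duct-like than Neurog3-gated cells (1.83). Gas5, a host of small nucleolar RNAs with a TOP tract, was 1.83 higher in mesenchyme-like than hormone-gated cells. Among translocation genes Sec11c, of the signal peptidase, fell by 2.97 in mesenchyme-like against hormone-gated cells and by 1.74 in Neurog3- against Fev-gated cells. Ssr3 fell by 1.76 in glucagon- against insulin-gated cells, and Spcs3 was 1.86 higher in acinar- than duct-like cells.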

How the data were processed

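The deposited table gives estimated counts of transcripts per gene and well, made by the authors from unique molecular identifiers with a correction for collisions (seen from the values) and not scaled for depth. Per the submitters' processing notes the tools were BWA and Seurat on mm10, with no version given. The members, lists and comparisons were chosen with earlier results of these data known. Members named are the paralog pairs, the stalk genes and Rpsa, the 5 with the highest and, among those tested, the 5 with the lowest mean CPM, and per comparison the 3 called furthest above and below the member total. Further genes named are ribosome-related genes outside the rule, the extremes of each companion list, and the 5 most like Rpl39l. Rps3a1, copies named -ps, Rpl36, the markers read in cells with Rpl39l and the per-plate values of Rplp2 and Rpsa were chosen after their values were seen. Some genes that these rules name are not reported here.

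Of the wells, 1536 columns matched no listed library and were not used. Wells with at least 2000 transcripts and 500 genes without spike-ins were kept, 8 wells were dropped as possible doublets because they held over 5 times the plate median, and no doublet caller was used since single cells were sorted. No 2 cells had identical columns. Clusters came from scanpy 1.11.5 (2000 variable genes, 30 components, 15 neighbours, Leiden resolution 1). Values were rounded to whole numbers per cell, summed per lineage and experiment (at least 10 cells, 59 sums) and tested with edgeR 4.0.16 in R 4.3.3 (TMM, filterByExpr, quasi-likelihood test, adjusted p 0.05), with all lineages in 1 fit. Hormone-gated is the mean of the insulin- and glucagon-gated coefficients. For departures the library size was set to the member total. The experiment was a block in the main comparisons of lineages, and the slopes, with 1 sum per experiment, had no block. Lineages of 1 experiment mostly lie on different plates, so the block does not part sort or plate from lineage, and sums per plate with the plate as block were an alternative. The steps were checked on simulated counts. DESeq2 1.42.0, other scaling, filters, cells, clusters and single experiments left out were alternatives.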

Additional observations from a re-analysis of the deposited data

Results flagged for a closer look

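Within 156 groups of 4 to 10 experiments, 28 had a highest or lowest value that stood apart from the rest by Dixon's test at the 95% level, where chance alone gives about 5%. Of these, 16 are Rplp2 and Rpsa in EP16, chosen for this look after their values were seen. Per 10000 member transcripts, Rplp2 in EP16 was at 24.4 in Fev-gated, 21.3 in duct-like, 26.9 in endocrine-like, 24.1 in glucagon-gated, 24.9 in immune-like, 25.6 in insulin-gated, 21.2 in mesenchyme-like and 24.5 in mesothelium-like cells. The highest value of Rplp2 in any other experiment of these lineages was 3.03. Rpsa in EP16 was at 169, 162, 181, 157, 192, 198, 195 and 155 in the same lineages in that order, and at most 76.4 elsewhere in them.

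The member share stood apart in EP17, at 10.8% in endocrine-like cells (others 6.49% to 7.58%) and 8.70% in insulin-gated cells (others 5.20% to 6.09%). The Fev-gated minus hormone-gated difference of EP17, 2.22 percentage points, lay above the others (0.417 to 0.908). The live minus MIP-GFP difference of EP16, 1.30 points, lay below the others (5.74 to 8.94). Rps27l stood apart in the shallow experiments in 4 lineages, at 83.6 in acinar-like (EP17), 37.1 in endocrine-like (EP17), 36.6 in mesenchyme-like (EP18) and 26.9 in mesothelium-like cells (EP18). Other single values were Rpl36a in insulin-gated cells of EP17 (46.4, others up to 40.9), Rpl9 in mesothelium-like cells of EP18 (159, others up to 143), Rps26 in glucagon-gated cells of EP18 (142, others up to 102) and Rpl10 in endocrine-like cells of EP10 (339, others up to 294).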

How the results depend on the processing

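The mean within-plate differences of the share kept their direction under each alternative that gave a value. The authors' own cell selection gave none for mesenchyme-like against hormone-gated cells. The experiment block was part of each main fit between lineages, while the slopes had none. With no replicate block the count of members called went from 16 to 5 for duct-like against Neurog3-gated cells. It went from 69 to 34 for Neurog3- against Fev-gated and from 2 to 0 for Fev-gated against hormone-gated cells. It went from 4 to 2 for glucagon- against insulin-gated and from 64 to 10 for acinar- against duct-like cells. Departures from the member total went from 46 to 25 in mesenchyme-like against hormone-gated cells and, in these 5 comparisons in order, from 1 to 0, 25 to 4, 6 to 0, 8 to 4 and 2 to 1.

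For Fev-gated against hormone-gated cells, where 2 members were called, 8 were with DESeq2's size factors, 1 with no filter, 13 with DESeq2, 12 with sums per plate, 1 with the authors' cells, 11 with only the lineages compared and 4 without the shallow experiments (an alternative chosen after seeing the data). Departures there were 2 with no filter, 13 per plate, 10 with DESeq2 and 2 without the shallow experiments. For glucagon- against insulin-gated cells, with 4, the counts were 7 with DESeq2's size factors, 8 with DESeq2, 8 per plate and 13 with only these lineages, and departures were 5 with no filter and 13 per plate. For duct-like against Neurog3-gated cells, with 16, they were 29 with DESeq2, 59 per plate, 38 with the authors' cells and 42 with only these lineages. Departures of acinar- against duct-like cells were 5 per plate and 6 with DESeq2. Slopes gave 4 (no filter), 4 (DESeq2) and 11 (without the shallow experiments) in mesenchyme-like and 3, 2 and 5 in duct-like cells. Per plate, Rpl37 became -0.059 and Rps15a -0.0067 in Neurog3- against Fev-gated cells. The cause was not tested in any of these. For the alternatives, and for single experiments left out, the share of all genes called is not reported here. A moved count therefore cannot be read as particular to the members.

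Leaving out 1 experiment at a time, the members called ranged from 75 to 76 (mesenchyme-like against hormone-gated), 2 to 34 (duct-like against Neurog3-gated), 63 to 72 (Neurog3- against Fev-gated), 0 to 12 (Fev-gated against hormone-gated), 3 to 5 (glucagon- against insulin-gated) and 37 to 69 (acinar- against duct-like), and in the same order departures from 41 to 49, 0 to 2, 13 to 24, 0 to 9, 4 to 7 and 1 to 3. Slopes ranged from 0 to 11 in mesenchyme-like and 0 to 3 in duct-like cells. The correlation of share and day changed sign, from -0.27 to 0.34 in duct-like cells (0.34 without EP18) and from -0.10 to 0.43 in hormone-gated cells (-0.10 without EP11). Of the alternatives for single genes other than leaving out an experiment, 225 stayed on their side of the threshold, 29 lost the call, 7 gained it and 2 changed sign.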
